A study of Mus musculus with 18 samples.

Results

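*Igf2bp1*, *Igf2bp2*, *Igf2bp3*, *Lin28a*, *Lin28b*, *Hmga1* and *Hmga2* are 7 oncofetal genes, found by their symbols among the 35275 genes of the read-count table. They were measured by RNA-seq in 18 libraries, from 3 cultures of each of 6 mouse malignant peripheral nerve sheath tumor (MPNST) lines. The 6 lines came from 6 separate tumors raised in wild-type 129 Sv/Jae mice by injecting the sciatic nerve with an adenovirus that carried Cas9 and guide RNAs. In 3 lines the guides targeted *Nf1* and *Trp53* (*Nf1*/*p53* dKO), and in 3 lines *Nf1* and the p16 and p19 products of *Cdkn2a* (*Nf1*/*Cdkn2a* dKO). Loss of *Nf1* was thus shared by all lines. *Cdkn2a* was not targeted in the former and *Trp53* not in the latter, and no unedited line was included. The virus drove Cas9 from a general promoter rather than one of a single cell type, each line is 1 tumor, the cells were untreated and grown in serum, and the age of the mice is not given in the labels. The 7 genes were chosen from earlier results of these libraries in which their levels differed between lines, so their levels and their differences between the genotypes are given below as a description, with no test.

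Library totals ran from 19560535 to 28312207 counts, and levels are given in CPM, the counts of a gene scaled to the size of the library with TMM factors. Of the targeted genes, *Trp53* RNA was at 94.1, 67.5 and 58.7 CPM in *Nf1*/*p53* dKO lines 1, 2 and 3 and at 246.9, 246.0 and 184.8 CPM in *Nf1*/*Cdkn2a* dKO lines 1, 2 and 3 (log2 fold change 1.62 ± 0.23 SE, edgeR quasi-likelihood adjusted p = 0.0361). *Nf1* RNA was at 27.7 to 70.0 CPM and 12.7 to 38.3 CPM, and *Cdkn2a* RNA at 42.9 to 363.0 CPM and 168.8 to 391.6 CPM, in the same order. Small edits can leave a transcript in place, so these levels do not by themselves check the edits. Mesenchymal markers such as *Vim* and *Col1a1* were high in every line, with a summed level of 11270 to 29370 CPM and 14128 to 24198 CPM, whereas the Schwann cell marker *Sox10* stayed under 1 CPM in every line (summed level of 12 Schwann cell markers 84.3 to 151.7 CPM and 24.9 to 108.5 CPM, 9 of 10 tested lower in the *Nf1*/*Cdkn2a* dKO lines, none called by edgeR, 4 at an unadjusted p under 0.05 where 22.4% of all genes were, and 3 of 9 called by DESeq2 on the 6 lines where 12.0% of all genes were). The muscle progenitor markers moved with genotype: their summed level ran from 114.0 to 578.6 CPM across the *Nf1*/*p53* dKO lines and from 7.60 to 28.0 CPM across the *Nf1*/*Cdkn2a* dKO lines. *Myf5* and *Cdh15*, of 5 tested, were called lower in the latter (adjusted p = 0.00672 and 0.0191 with edgeR, which called 1.80% of all genes). *Myod1* was at 1.75, 0.269 and 203.6 CPM in *Nf1*/*p53* dKO lines 1, 2 and 3 and had no read in the other 3 lines. Of 10 leukocyte and 10 endothelial markers, 7 and 7 stayed under 1 CPM in every line, and *Laptm5* (0.251 ± 0.222 against 13.8 ± 4.19 CPM, SD, n = 3), *Esam* (0.299 ± 0.166 against 13.6 ± 9.69 CPM) and *Tek* (0.686 ± 0.349 against 0.0715 ± 0.00704 CPM) were called. These were 1 of 4 leukocyte and 2 of 5 endothelial markers tested with edgeR, against 1.80% of all genes. The edgeR calls of *Trp53*, *Cdh15*, *Laptm5*, *Esam* and *Tek* were lost when any 1 of the *Nf1*/*Cdkn2a* dKO lines was left out, and that of *Myf5* without line 1 of these (adjusted p = 0.0795). Without *Nf1*/*Cdkn2a* dKO line 1, 2 or 3, only 0, 2 and 23 genes of the whole series were called. In the 3 fits without 1 *Nf1*/*p53* dKO line, *Cdh15* and *Myf5* were called in 3, *Trp53* and *Laptm5* in 1, and *Esam* and *Tek* in 0. The part of these cell states in the levels below was not tested, and in bulk RNA fewer expressing cells and less RNA per cell cannot be told apart.

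The proteins form a small circuit that is active in the embryo and is mostly shut off in adult tissue. Lin28a and Lin28b bind the precursors of the let-7 microRNAs and block their maturation, while mature let-7 represses mRNAs that include those of the Lin28, Igf2bp and Hmga genes. The Igf2bp proteins are cytoplasmic RNA-binding proteins that stabilize mRNAs or guide their translation, among them *Igf2*, *H19*, *Actb* and *Myc*. Hmga1 and Hmga2 are AT-hook proteins that bind the minor groove of AT-rich DNA and shape chromatin. Their return in cancer is why they are called oncofetal.

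The let-7 sequences are shown because every one of the 7 mRNAs carries a match to them. In the RefSeq table for GRCm38.p6, 10 mature names of the let-7 family, including miR-98, share 1 seed (bases 2 to 8, in capitals), and let-7j alone has another.
let-7a-5p: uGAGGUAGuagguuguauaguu
let-7g-5p: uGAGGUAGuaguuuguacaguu
miR-98-5p: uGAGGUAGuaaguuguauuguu

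The reverse complement of that seed, CTACCTC, was searched in the longest annotated 3′ UTR of each gene (GENCODE M21, GRCm38). It occurred in 9.02% of 21022 protein-coding genes, and the 8-letter form with a following A in 3.06%. *Igf2bp1*, *Lin28b* and *Hmga2* held 4 matches each, a number reached by 12 genes in all (0.0571%). *Lin28a* held 2, and *Igf2bp2*, *Igf2bp3* and *Hmga1* held 1 each. *Hmga2* was the densest, with 1.33 matches per kb over 3014 bases, against 0.631 per kb over the 6337 bases of *Igf2bp1*. The *Hmga1* match lies in an extended UTR of 1183 bases and is lost in the 111-base UTR of the transcript with the longest coding sequence. *Hmga1* also has no 8-letter match, so that form left 6 of the 7 genes. A match is a run of letters and does not by itself mark a working site.

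For each gene the match nearest to the stop codon is shown, all minus strand except *Hmga1*, with the matching letters in capitals. On GRCm38 the stretches lie at chr11:95961776-95961799 (*Igf2bp1*), chr16:22059471-22059494 (*Igf2bp2*), chr6:49086785-49086808 (*Igf2bp3*), chr4:134005187-134005210 (*Lin28a*), chr10:45381020-45381043 (*Lin28b*), chr17:27563278-27563301 (*Hmga1*) and chr10:120364222-120364245 (*Hmga2*).
Igf2bp1: ctgtgcgaagtaaaCTACCTCAag
Igf2bp2: cacacaaataaaagCTACCTCAgg
Igf2bp3: gcatttttactcaaCTACCTCAgg
Lin28a: cacagcctgttgaaCTACCTCAtt
Lin28b: cccgggcgggaagtCTACCTCAtg
Hmga1: cctctgttcacaaaCTACCTCtgg
Hmga2: ccgacattcaatttCTACCTCAgc

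Per length of exon, the 6 lines held a large amount of Hmga RNA, a moderate amount of *Igf2bp2* and little of the rest. *Hmga1* stood at 186.8 to 320.7 CPM per kb and ranked 99 to 201 among the 15207 genes tested, and *Hmga2* stood at 44.5 to 165.3 CPM per kb and ranked 283 to 1078. *Igf2bp2* followed at 7.35 to 18.4 CPM per kb. *Igf2bp3* reached 2.31 CPM per kb in its highest line, *Igf2bp1* 0.453 and *Lin28b* 0.434. *Lin28a* gave 2 reads in all 18 libraries.

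*Igf2bp3* (chr6:49085223-49214957, minus strand) separated the genotypes most clearly. In the *Nf1*/*p53* dKO cultures it gave 10.1, 10.2 and 9.04 CPM in line 1, 18.7, 18.4 and 19.6 CPM in line 2, and 7.56, 8.75 and 8.60 CPM in line 3. In the *Nf1*/*Cdkn2a* dKO cultures it gave 0.490, 0.213 and 0 CPM in line 1, 0.232, 0.388 and 0 CPM in line 2, and 0.272, 0.0487 and 0.139 CPM in line 3. Every *Nf1*/*p53* dKO culture lay above every *Nf1*/*Cdkn2a* dKO culture. The 3 *Nf1*/*Cdkn2a* dKO lines rested on 14, 15 and 10 reads (exact Poisson 95% intervals 7.65 to 23.5, 8.40 to 24.7 and 4.80 to 18.4 reads, for counting error only), against 755, 1332 and 601 reads. Line means were 12.3 ± 5.71 CPM and 0.199 ± 0.0372 CPM (SD, n = 3 lines), a fitted log2 fold change of -5.94 ± 0.48 (SE). Within the *Nf1*/*p53* dKO group the culture ranges of the 3 lines did not touch, whereas those of the *Nf1*/*Cdkn2a* dKO lines overlapped. Of the 75-letter stretches of the *Igf2bp3* transcripts, 17.8% also occur in *Malsu1*, a ribosome assembly factor gene on the opposite strand, whose level was close in the genotypes (16.9 ± 1.69 and 15.2 ± 2.07 CPM). Reads from that overlap could be counted for either gene where strand was not used.

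*Igf2bp1* (chr11:95957163-96005940, minus strand), the family member best known from embryonic tissue, was low and differed more among the *Nf1*/*p53* dKO lines than between the genotype means. *Nf1*/*p53* dKO line 2 was highest, at 3.65, 4.87 and 4.66 CPM, followed by line 1 at 1.22, 1.20 and 1.21 CPM. *Nf1*/*p53* dKO line 3 gave 0.0850, 0 and 0.0422 CPM, from 3 reads in its 3 cultures, and was the lowest of the 6 lines. The *Nf1*/*Cdkn2a* dKO lines lay between them, at 0 to 0.694, 0.695 to 0.863 and 0 to 0.389 CPM, and the culture ranges of the 3 lowest lines overlapped. The genotypes overlapped, with means of 1.87 ± 2.25 and 0.429 ± 0.328 CPM (SD, n = 3 lines) and a fitted log2 fold change of -2.12 ± 1.36 (SE). That difference rested on *Nf1*/*p53* dKO line 2, without which it was -0.52.

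*Lin28b* (chr10:45376620-45486395, minus strand), the let-7 blocker, was on in 4 lines and near 0 in 2. It gave 1.17, 2.79 and 2.09 CPM in *Nf1*/*p53* dKO line 1 and 4.19, 3.79 and 3.82 CPM in line 2. *Nf1*/*p53* dKO line 3 gave 2 reads in all and *Nf1*/*Cdkn2a* dKO line 1 gave 3 reads (95% exact Poisson intervals 0.242 to 7.23 and 0.619 to 8.77 reads). The other *Nf1*/*Cdkn2a* dKO lines gave 1.16, 1.16 and 0.831 CPM in line 2 and 0.499, 0.681 and 1.85 CPM in line 3, and their culture ranges overlapped. Each genotype thus held a line with almost no *Lin28b* RNA, and the group means, 2.02 ± 1.95 and 0.711 ± 0.574 CPM (SD, n = 3 lines), had spreads close to their size. The fitted log2 fold change was -1.50 ± 1.50 (SE), and -0.56 without *Nf1*/*p53* dKO line 2 and -2.08 without line 3. Over the 18 cultures *Lin28b* and *Igf2bp1* had a Pearson correlation of 0.82 (Spearman 0.85) in log2 CPM, which is a description over 6 lines and not over 18 independent samples. Both were highest in *Nf1*/*p53* dKO line 2, second in line 1 and lowest in line 3.

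*Lin28a* (chr4:134003330-134018841, minus strand), the paralog typical of stem cells, gave 1 read in 1 culture of *Nf1*/*p53* dKO line 1, 1 read in 1 culture of *Nf1*/*Cdkn2a* dKO line 3 and none in the other 16 libraries. It did not pass the filter on low counts and has no fitted value. Among 12 pluripotency and germ cell markers, 11 stayed under 1 CPM in every line and *Pou5f1*, *Zfp42* and *Tdgf1* had no read. *Sox2*, a transcription factor shared by stem cells and the neural lineage, was the exception, at 147.4, 42.1 and 12.8 CPM (*Nf1*/*p53* dKO lines 1, 2 and 3) against 175.7, 134.8 and 160.2 CPM (*Nf1*/*Cdkn2a* dKO lines 1, 2 and 3) (log2 fold change 1.22 ± 0.78 SE, adjusted p = 0.400 with edgeR). It was not called by DESeq2 on the 6 lines and was called by limma-voom on the 18 cultures.

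*Hmga2* (chr10:120361275-120476469, minus strand), the HMGA protein of embryonic mesenchyme, was higher in every *Nf1*/*Cdkn2a* dKO culture than in any *Nf1*/*p53* dKO culture. The *Nf1*/*p53* dKO cultures gave 594.3, 601.7 and 574.5 CPM in line 1, 547.2, 536.7 and 526.9 CPM in line 2, and 299.1, 297.8 and 308.1 CPM in line 3. The *Nf1*/*Cdkn2a* dKO cultures gave 919.2, 832.9 and 806.8 CPM in line 1, 1095, 1149 and 1105 CPM in line 2, and 831.3, 836.6 and 918.0 CPM in line 3. Line means were 475.3 ± 152.6 and 945.7 ± 150.6 CPM (SD, n = 3 lines), a fitted log2 fold change of 0.99 ± 0.28 (SE). *Nf1*/*Cdkn2a* dKO lines 3 and 1 overlapped, and every other neighboring pair in the order of lines had culture ranges apart. Most of the variance of *Hmga2* within a genotype lay between lines rather than between cultures of a line, 99.7% for *Nf1*/*p53* dKO and 89.0% for *Nf1*/*Cdkn2a* dKO, where the medians over all genes tested were 83.9% and 55.3%.

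*Igf2bp2* (chr16:22059009-22163299, minus strand), the family member that stays on in adult tissue, ran in the same direction as *Hmga2* and opposite to *Igf2bp3*. It gave 73.2, 73.9 and 71.0 CPM in *Nf1*/*p53* dKO line 1, 79.0, 76.3 and 74.1 CPM in line 2, and 55.4, 53.5 and 54.5 CPM in line 3. It gave 117.5, 101.5 and 101.2 CPM in *Nf1*/*Cdkn2a* dKO line 1, 137.2, 134.5 and 135.9 CPM in line 2, and 111.0, 106.6 and 120.5 CPM in line 3. The cultures of the genotypes did not overlap, *Nf1*/*Cdkn2a* dKO lines 3 and 1 were the only neighbors in the order of lines whose ranges met, and line means were 67.8 ± 11.7 and 118.7 ± 15.5 CPM (SD, n = 3 lines), a fitted log2 fold change of 0.81 ± 0.18 (SE). *Igf2bp2* and *Hmga2* shared their highest line (*Nf1*/*Cdkn2a* dKO line 2) and their lowest (*Nf1*/*p53* dKO line 3), and correlated at 0.98 (Pearson; Spearman 0.93) over the 18 cultures of 6 lines. Hmga2 protein is known to activate *Igf2bp2* transcription, which is background and was not measured here.

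*Hmga1* (chr17:27556497-27563674, plus strand), the HMGA protein common in dividing cells, was abundant in all lines and overlapped between the genotypes. It gave 657.2 to 736.2, 459.8 to 500.3 and 376.3 to 426.1 CPM in the cultures of *Nf1*/*p53* dKO lines 1, 2 and 3. The *Nf1*/*Cdkn2a* dKO lines gave 514.5 to 720.9, 640.1 to 694.1 and 476.8 to 488.2 CPM. The 3 highest lines, *Nf1*/*p53* dKO line 1 and *Nf1*/*Cdkn2a* dKO lines 2 and 1, had overlapping culture ranges, and so had *Nf1*/*Cdkn2a* dKO line 3 and *Nf1*/*p53* dKO line 2. Means were 517.6 ± 147.1 and 597.3 ± 100.4 CPM (SD, n = 3 lines), a fitted log2 fold change of 0.21 ± 0.24 (SE). Its count is uncertain, because 46.9% of the 75-letter stretches of its transcripts also occur in transcripts annotated to other genes.

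**Figure D1:**
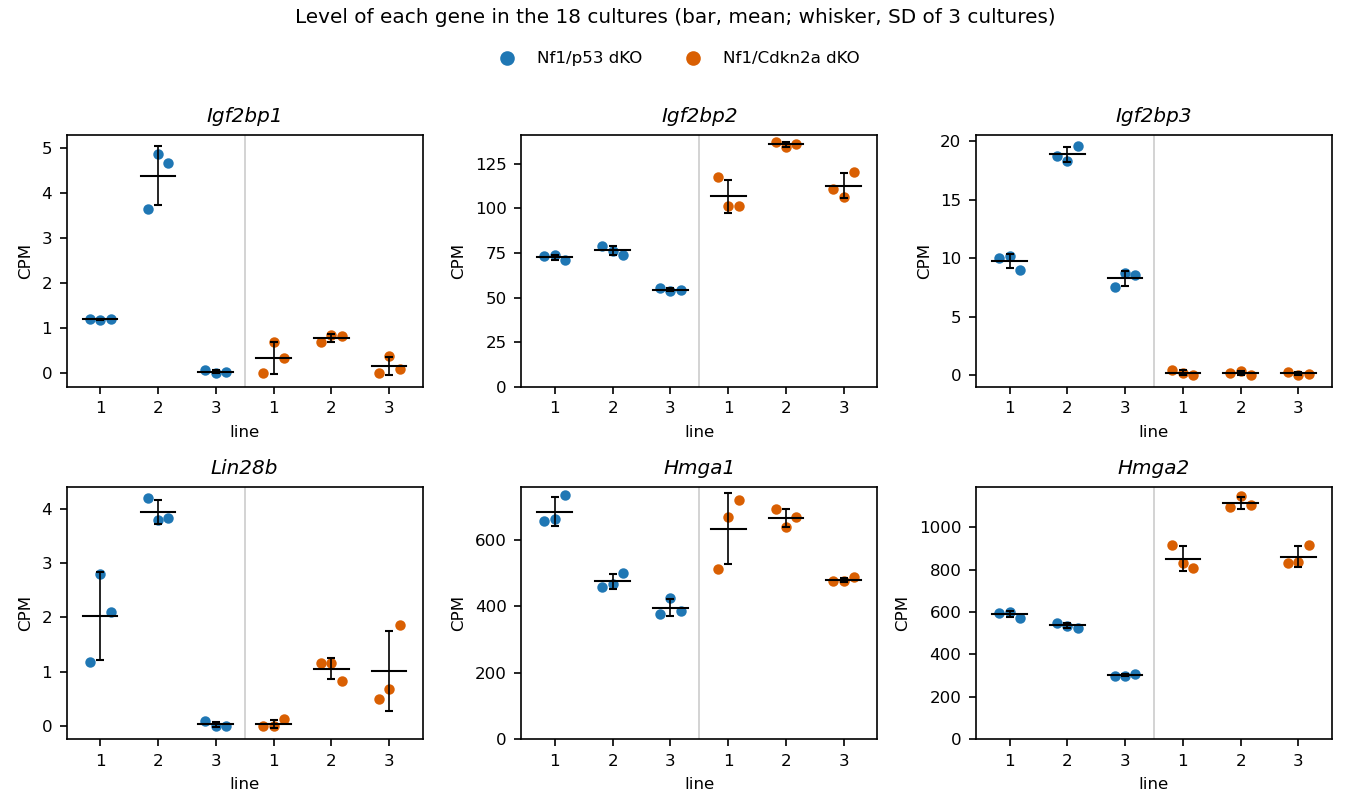
Level in CPM (vertical axes, linear, one scale per gene) of 6 of the 7 genes in each culture, by line (horizontal axes); points are cultures, bars and whiskers the mean and SD of 3 cultures. *Igf2bp3* is at 7.56 CPM or more in the *Nf1*/*p53* dKO cultures and at 0.490 CPM or less in the *Nf1*/*Cdkn2a* dKO cultures, while *Lin28b* and *Igf2bp1* differ among lines and overlap between the genotypes.

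Of the 7 genes, 6 could be fitted and 1, *Igf2bp3*, was called with edgeR at an adjusted p under 0.05, where 1.80% of the 15207 genes tested were called. The values of 3 of them (*Igf2bp3*, *Igf2bp2* and *Hmga2*) did not overlap between the lines of the genotypes, as for 31.4% of all genes tested. Since these differences were among the reasons for choosing the genes, nothing is read from either count, nor from the fact that *Igf2bp3* did not pass when any 1 of the *Nf1*/*Cdkn2a* dKO lines was left out. Fitted differences ran from -5.94 for *Igf2bp3* to 0.99 for *Hmga2* on the log2 scale, with 3 genes on each side of 0, and the median of all genes was -0.02. When 1 line was left out, the difference stayed between -6.15 and -5.48 for *Igf2bp3*, between 0.68 and 0.92 for *Igf2bp2*, between 0.76 and 1.18 for *Hmga2* and between 0.05 and 0.46 for *Hmga1*.

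**Figure D2:**
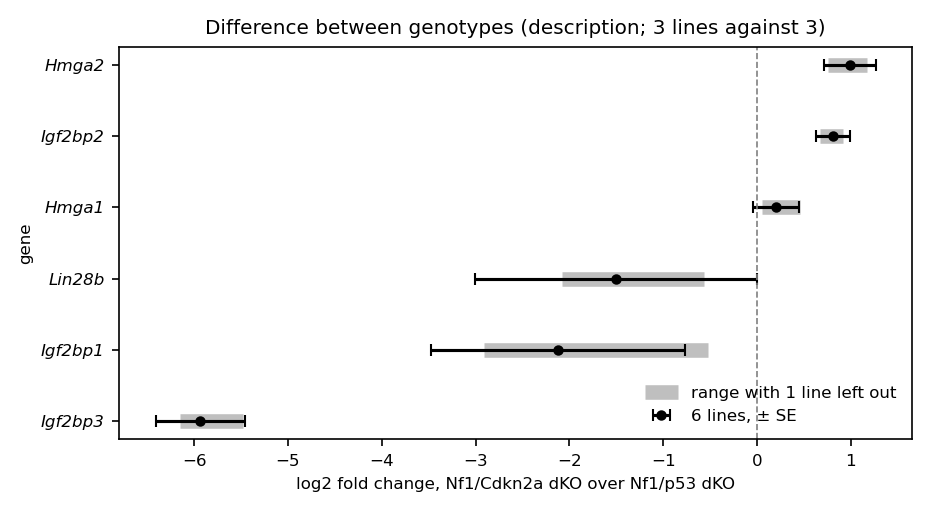
Fitted log2 fold change, *Nf1*/*Cdkn2a* dKO over *Nf1*/*p53* dKO (horizontal axis), for the 6 fitted genes (vertical axis); points and whiskers are the value and SE from 6 lines, and gray bars the range with 1 line left out. *Igf2bp3* sits alone at -5.94, and the wide bars of *Igf2bp1* and *Lin28b* come from single lines.

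The make-up of the Igf2bp family differed with these levels. Per kb of exon, *Igf2bp2* made up 88.1, 78.9 and 87.8% of the family's RNA in *Nf1*/*p53* dKO lines 1, 2 and 3, and 99.6, 99.4 and 99.8% in the *Nf1*/*Cdkn2a* dKO lines. *Igf2bp3* made up 10.7, 17.6 and 12.2% in the former and 0.190, 0.143 and 0.125% in the latter. *Igf2bp1* was at most 3.46%, in *Nf1*/*p53* dKO line 2. The family's summed level was 10.9 ± 2.36 and 16.1 ± 2.13 CPM per kb (SD, n = 3 lines). Each *Nf1*/*Cdkn2a* dKO line, at 14.5, 18.5 and 15.3, stood above each *Nf1*/*p53* dKO line, at 11.1, 13.1 and 8.38. In the Hmga family, *Hmga1* exceeded *Hmga2* per kb in every line, and the ratio of *Hmga2* to *Hmga1* was 0.271, 0.355 and 0.238 with p53 targeted (lines 1, 2 and 3) and 0.419, 0.524 and 0.562 with *Cdkn2a* targeted. In CPM the same ratio was 0.862, 1.13 and 0.760 with p53 targeted and 1.33, 1.67 and 1.79 with *Cdkn2a* targeted. The order per kb thus rests on the exon lengths used, 2125 bases for *Hmga1* and 6772 for *Hmga2*, and on the uncertain *Hmga1* count.

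**Figure D3:**
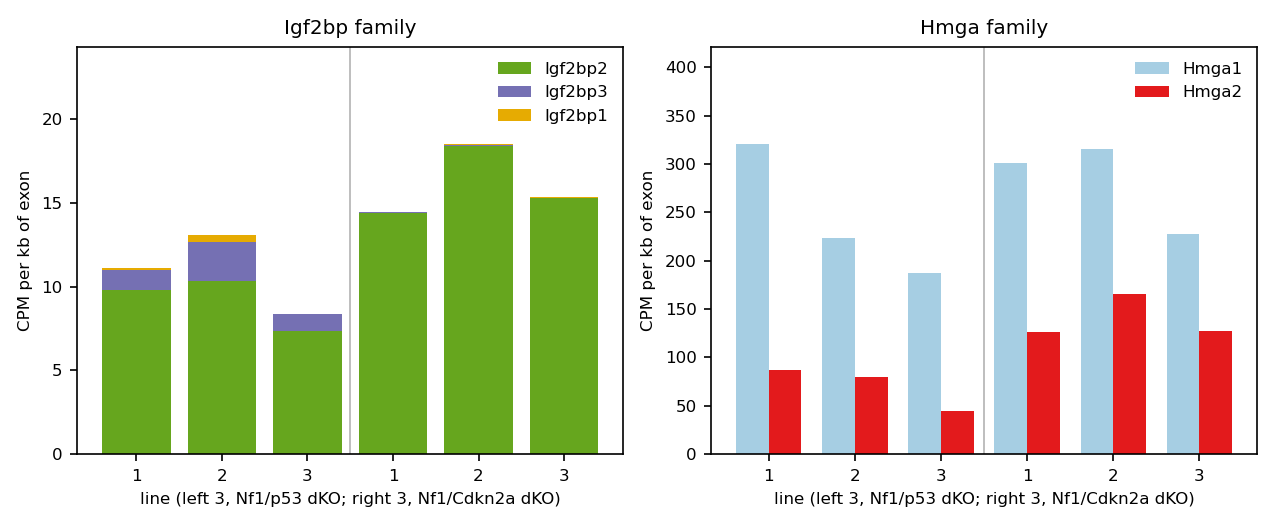
Level per kb of exon (vertical axes, CPM per kb, from 0) of the Igf2bp genes, stacked, and of the Hmga genes, side by side, in each of the 6 lines (horizontal axes). *Igf2bp2* is the bulk of its family in every line, and *Igf2bp3* is at most 0.190% of the family in the *Nf1*/*Cdkn2a* dKO lines. *Hmga1* is above *Hmga2* in every line on this scale per kb, an order that does not hold in CPM in every line.

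No gene of microRNA processing and let-7 control, and none of the other known let-7 targets listed here, was called by edgeR. Of the 20 processing and control genes, 4 had an unadjusted p under 0.05 (22.4% of all genes), DESeq2 on the 6 lines called 2 of 20 (12.0% of all genes) and limma-voom on the 18 cultures 2 of 19 (16.6% of all genes), none of them above the share over all genes. Of the 20, 8 had a log2 fold change above 0 and 12 below it, and their median log2 fold change was -0.09. *Drosha*, the nuclear microRNA processing enzyme, was lowest among them, at 160.4, 137.5 and 145.4 CPM in *Nf1*/*p53* dKO lines 1, 2 and 3 against 100.2, 85.4 and 69.4 CPM in *Nf1*/*Cdkn2a* dKO lines 1, 2 and 3, the order kept for the values below (log2 fold change -0.80 ± 0.17 SE, adjusted p = 0.0663 with edgeR). *Ago4*, an Argonaute gene, was highest, at 0.155, 0.382 and 0.194 CPM against 1.59, 1.53 and 1.42 CPM (2.63 ± 0.47 SE, adjusted p = 0.0511). In neither gene did the lines of the genotypes overlap, which held for 9 of the 20 genes and for 31.4% of all genes tested. Most let-7 precursor and host transcripts fixed for this comparison have no row in the table, and the 2 that do, *Huwe1* and *Wdr82*, had a median log2 fold change of -0.08 with neither called by any of the 3 tools or at an unadjusted p under 0.05. The host transcript of *Mir99a* and *Mirlet7c-1*, which was chosen after its values were seen, was at 2.67, 2.50 and 3.25 CPM against 0.770, 1.24 and 0.579 CPM (log2 fold change -1.70 ± 0.41 SE, adjusted p = 0.0830 with edgeR). Mature let-7 was not measured.

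Of 28 known let-7 targets, 26 were tested, none was called by edgeR, 5 had an unadjusted p under 0.05, DESeq2 called 3 of 27 and limma-voom 5 of 25, which is near the shares over all genes just given. Of the 26, 14 had a log2 fold change above 0 and 12 below it, and the median was 0.09. *Ccnd2*, a cyclin, was the lowest at -1.60 ± 0.99 (SE, adjusted p = 0.387 with edgeR), with 239.4, 365.6 and 33.1 CPM against 144.8, 18.7 and 47.0 CPM. *Il6*, an inflammatory cytokine, was the highest at 2.55 ± 1.13 (SE, adjusted p = 0.246), and 1 line, *Nf1*/*Cdkn2a* dKO line 3 at 6.77 CPM, stood above the other 5, at 0.834 CPM or less. Of the 28, 17 (60.7%) hold a 7-letter match. Over all 13365 genes tested that have a 3′ UTR, the median log2 fold change was -0.03 for 11958 genes with no match, -0.02 for 1232 genes with 1, -0.05 for 148 genes with 2 and 0.00 for 27 genes with 3 or more. The medians thus lay within 0.1 of each other, although the UTRs lengthened from a median of 1064 to 4466 bases. Among UTRs of 3000 bases or more, the median was -0.02 with a match (545 genes) and 0.03 without (1577 genes). The number of matches gave no order to the 6 fitted genes: *Hmga2* at 0.99, *Lin28b* at -1.50 and *Igf2bp1* at -2.12 all hold 4.

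**Figure D4:**
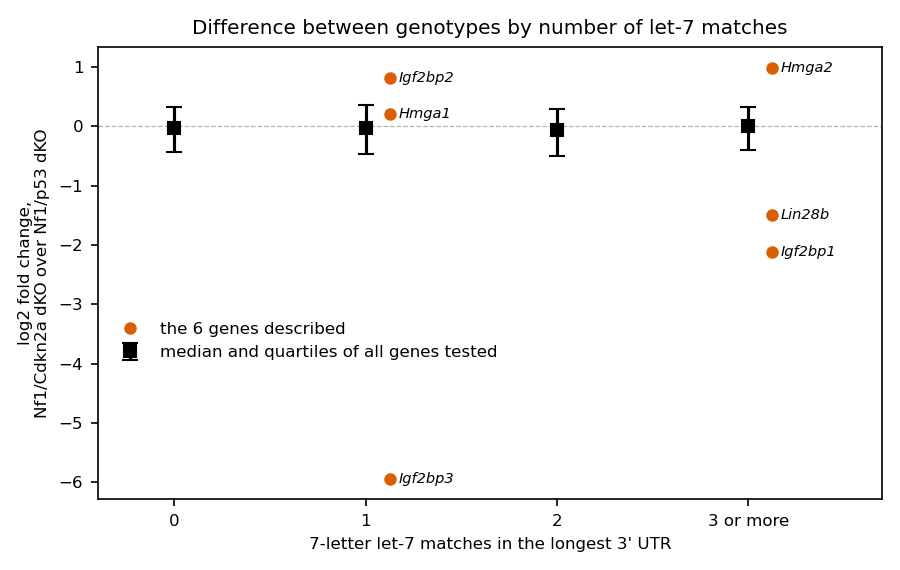
Log2 fold change, *Nf1*/*Cdkn2a* dKO over *Nf1*/*p53* dKO (vertical axis), by number of 7-letter let-7 matches in the longest 3′ UTR (horizontal axis); squares and whiskers are the median and quartiles of all genes tested, and circles the 6 fitted genes. The medians lie between -0.05 and 0.00 in the 4 classes, and the 6 genes spread to both sides.

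Among the mRNAs known to be bound by Igf2bp proteins, the imprinted *Igf2* and *H19* stood out. Of 11 such mRNAs, 10 were tested and 1, *H19*, was called by edgeR, where 1.80% of all genes were called, and 5 had an unadjusted p under 0.05, where 22.4% of all genes had. *H19*, a noncoding RNA next to *Igf2*, was at 19.04, 40.3 and 69.7 CPM in *Nf1*/*p53* dKO lines 1, 2 and 3 against 0.353, 0.202 and 0.422 CPM with *Cdkn2a* targeted (log2 fold change -7.04 ± 0.64 SE, adjusted p = 0.0189 with edgeR), and the call was lost when any 1 of the *Nf1*/*Cdkn2a* dKO lines was left out (adjusted p up to 0.0962). *Igf2*, a fetal growth factor, was at 4.41, 428.5 and 5.15 CPM against 0.209, 0.159 and 0.0626 CPM (-9.98 ± 2.43 SE, adjusted p = 0.0858). Its lines did not overlap, but 1 line, *Nf1*/*p53* dKO line 2, held most of it, and the same line was highest in *Igf2bp1*, *Igf2bp3* and *Lin28b*. Of the 10 tested, 5 had a log2 fold change above 0 and 5 below it, and the list's median was 0.02.

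Of 13 genes of insulin-like growth factor signaling, 1, *Igfbp2*, was called by edgeR (1.80% of all genes), and 4 had an unadjusted p under 0.05 (22.4% of all genes). *Igfbp2*, a secreted binding protein of the growth factors, was at 62.7, 119.6 and 13.4 CPM against 0, 0.0288 and 0.454 CPM (log2 fold change -8.66 ± 1.49 SE, adjusted p = 0.0482 with edgeR), and the call was lost when any 1 of the 6 lines was left out. *Igfbp4* was the highest of the list, at 654.5, 185.8 and 32.1 CPM against 982.1, 1161 and 1104 CPM (1.90 ± 0.92 SE, adjusted p = 0.281). *Igf1r*, the receptor of both growth factors and a let-7 target, was at a log2 fold change of 0.88 with an adjusted p of 0.0653. The list's median was 0.17, with 8 genes above 0 and 5 below it.

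Of 12 other high mobility group genes tested, none was called by edgeR or DESeq2, limma-voom called 2 (16.6% of all genes), 3 had an unadjusted p under 0.05 (22.4% of all genes), which is near the shares over all genes, and 11 were lower in the *Nf1*/*Cdkn2a* dKO lines, with a median log2 fold change of -0.38. *Hmgn2*, a nucleosome-binding protein, was the lowest, at 28.3, 62.9 and 62.0 CPM against 27.8, 27.8 and 26.3 CPM (-0.90 ± 0.31 SE, adjusted p = 0.159 with edgeR), and *Hmgxb4* the highest at 0.22 ± 0.16 (SE, adjusted p = 0.456). *Hmga1* and *Hmga2* were both on the other side of 0. Proliferation markers moved with this list, 17 of 18 lower and a median of -0.33, from *Bub1* at -0.62 to *Rrm2* at 0.17, with none called by edgeR or DESeq2, 4 called by limma-voom, 4 at an unadjusted p under 0.05, again near those shares, and summed levels of 3348 to 4920 CPM and 2919 to 3435 CPM, and their part in it was not tested. The 9 other oncofetal genes tested had a median of -0.08 and 1 edgeR call, *H19* (1.80% of all genes). Of the 9, 4 had an unadjusted p under 0.05 (22.4% of all genes). DESeq2 on the 6 lines called 3 of 9 (12.0% of all genes) and limma-voom 3 of 8 (16.6% of all genes). *Afp*, the fetal serum protein, was the highest at 6.12, 0.877 and 2.50 CPM against 12.6, 27.5 and 5.97 CPM (2.28 ± 0.83 SE, adjusted p = 0.178), and 2 genes, *Gpc3* and *Sall4*, stayed under 1 CPM in every line.

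**Figure D5:**
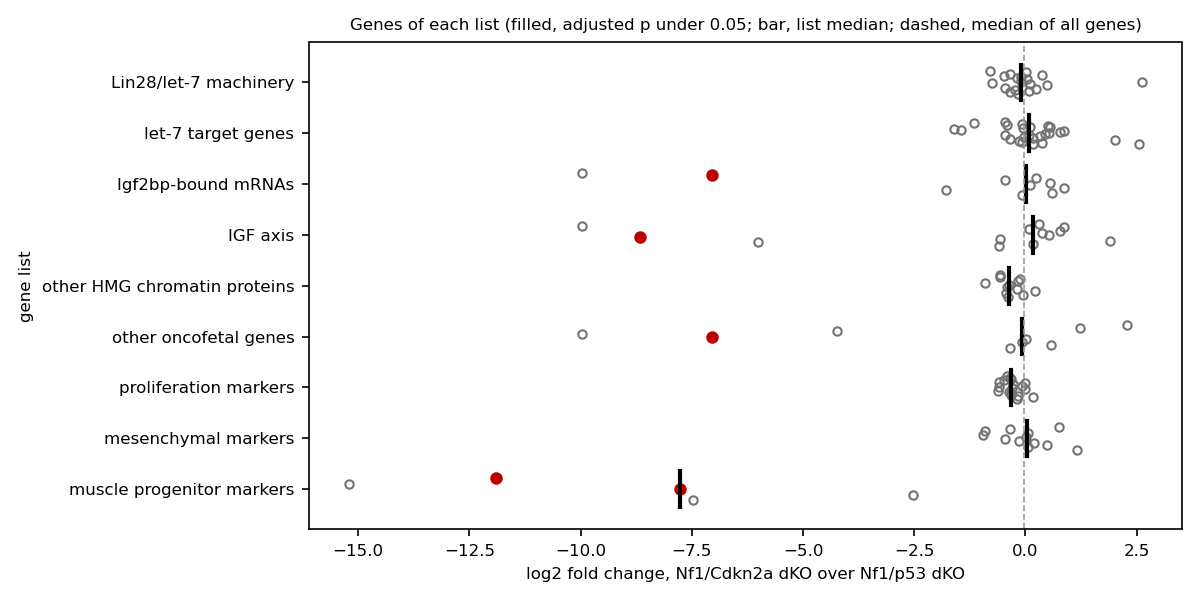
Log2 fold change, *Nf1*/*Cdkn2a* dKO over *Nf1*/*p53* dKO (horizontal axis), of each tested gene of 9 lists (vertical axis); filled points passed an adjusted p under 0.05 in edgeR, black bars are list medians and the dashed line the median of all genes. Medians of the 8 lists other than the muscle progenitor list lie between -0.38 and 0.17, and *H19*, *Igfbp2*, *Myf5* and *Cdh15* are the called genes.

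The genes most like each of the 6 fitted genes over the 18 cultures were sought by Pearson correlation of log2 CPM among genes with a mean of at least 5 CPM, as a description in which the cultures of a line share their source. *Igf2bp3* was most like *Cd200*, *Ncam1* and *Tiam1* (r = 0.99 for each), of which *Cd200* and *Ncam1* encode cell surface proteins and *Tiam1* an activator of Rac. *Cd200* averaged 65.7 and 9.29 CPM, *Ncam1* 74.1 and 14.3 CPM and *Tiam1* 14.0 and 0.0366 CPM in the *Nf1*/*p53* dKO and *Nf1*/*Cdkn2a* dKO cultures. *Hmga2* was most like *Socs6*, *Ptgs2* and *Fzd5* (r = 0.99, 0.99 and 0.98), where *Ptgs2*, the inducible cyclooxygenase, averaged 137.2 and 2285 CPM. *Igf2bp2* was most like *Egln1*, *Cyth3* and *Klf6* (r = 0.98 for each). *Igf2bp1* was most like *Fabp5*, *Impa1* and *Rcn1* (r = 0.97, 0.94 and 0.94), and *Lin28b* like *Gpm6b*, a membrane protein of the neural lineage, *Tpd52l1* and *Pdgfc* (r = 0.95, 0.92 and 0.92). *Hmga1* was most like *Tmem251*, *Map2k7* and *Pi4k2b* (r = 0.96, 0.94 and 0.93). With Spearman correlation 4 of these 18 genes stayed among the first 3.

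The promoters of 3 genes are shown because *Igf2bp2* and *Hmga2* ran together over the lines while *Igf2bp3* ran the other way. Each is the 250 bases before the RefSeq start (GRCm38.p6), 5′ to 3′ on the gene's own minus strand, at chr16:22163300-22163549 (*Igf2bp2*), chr10:120476470-120476719 (*Hmga2*) and chr6:49214955-49215204 (*Igf2bp3*). Capitals mark matches, on either strand, to TATAAA (the TATA box), CCAAT (the CCAAT box), GGGCGG (the GC box), CACGTG (the E-box bound by Myc), CAGCTG (an E-box of muscle factors) or TGACTCA (the AP-1 site), none of which overlap in these windows.
Igf2bp2: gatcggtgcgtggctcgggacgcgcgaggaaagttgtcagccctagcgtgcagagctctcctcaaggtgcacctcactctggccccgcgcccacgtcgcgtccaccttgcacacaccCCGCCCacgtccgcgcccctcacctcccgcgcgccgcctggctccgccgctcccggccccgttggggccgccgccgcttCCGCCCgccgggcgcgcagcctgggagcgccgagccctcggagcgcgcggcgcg
Hmga2: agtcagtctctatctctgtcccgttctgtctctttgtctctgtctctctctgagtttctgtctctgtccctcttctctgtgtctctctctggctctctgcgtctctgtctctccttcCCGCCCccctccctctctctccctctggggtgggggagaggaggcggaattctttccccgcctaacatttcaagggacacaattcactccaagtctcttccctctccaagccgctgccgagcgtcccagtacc
Igf2bp3: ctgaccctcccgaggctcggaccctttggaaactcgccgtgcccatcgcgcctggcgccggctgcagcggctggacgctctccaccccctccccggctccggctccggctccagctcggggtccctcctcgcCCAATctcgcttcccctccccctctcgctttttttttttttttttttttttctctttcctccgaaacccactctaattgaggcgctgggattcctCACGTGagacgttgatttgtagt

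Of 32851 promoters of that length, 12.4% hold TATAAA, 33.8% CCAAT, 32.7% GGGCGG, 6.02% CACGTG, 13.0% CAGCTG and 4.46% TGACTCA. *Igf2bp2* and *Hmga2* held GGGCGG, in 2 and 1 places, and none of the other motifs. *Hmga1*, which overlapped between the genotypes, held GGGCGG in 3 and 4 places in its overlapping windows, with 1 CAGCTG in each. The *Lin28a* window held none of the motifs. *Igf2bp3* held 1 CCAAT and 1 CACGTG and no GC box. The *Lin28b* window (chr10:45470202-45470451, minus strand) also held 1 CCAAT and 1 CACGTG. That window precedes a RefSeq start inside the annotated gene (chr10:45376620-45486395) and is not at the gene's 5′ end. The GC content was 77.2% for *Igf2bp2*, 56.4% for *Hmga2* and 60.4% for *Igf2bp3*, where the median of all promoters was 52.4%. These matches are descriptions of the letters in the windows.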

How the data were processed

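A company prepared and sequenced RNA-seq libraries of 18 cultures. The labels name CASAVA, STAR 2.5 and DESeq2 1.14.1, and the builds GRCm38 and mm10, without their roles, and the counting tool, its annotation and its use of strand are not given in the sources used here. The authors deposited raw, unnormalized counts, and all 18 columns were used. Totals were 19560535 to 28312207, which sets the precision of low genes, and intervals cover counting error only.

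The 3 cultures of each line were added up, since they come from 1 tumor. Genes passing filterByExpr (minimum count 10, total 15) were TMM-scaled and tested on the 6 lines by the quasi-likelihood method of edgeR 4.0.16, adjusted after Benjamini and Hochberg (limma 3.58.1, DESeq2 1.42.0, R 4.3.3). With 3 lines per genotype, p-values weigh the genotype difference against the spread between these lines, which edgeR moderates over all genes. CPM per kb uses the union of exons in GENCODE M21. Correlations used log2(CPM + 0.5). The fit was tested on simulated data.

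The 7 genes and all lists were chosen with earlier results of these data known. The text names every one of the 7, the targeted genes, the called genes of each list with its highest and lowest member, and the 3 genes most like each, except a few genes that are not reported here. Of 196 list entries, 182 were found in the table. Protein sequences and an *Igf2bp1* promoter were not used here. Alternatives were other scaling, filters, tools and units of replication, a block, and each line left out.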

Additional observations from a re-analysis of the deposited data

Results flagged for a closer look

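In the 9 cultures of a genotype, 1 culture stood apart by Dixon's 95% criterion in 2 of the 14 groups examined, both for *Lin28a*. These were a culture of *Nf1*/*p53* dKO line 1 at 0.0332 CPM and a culture of *Nf1*/*Cdkn2a* dKO line 3 at 0.0453 CPM, each of which is 1 read among cultures without any. With every other culture at 0, any culture with a read meets the criterion. The rate of about 1 in 20 groups flagged by chance therefore does not apply to *Lin28a*.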

How the results depend on the processing

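The 274 genes called became 423 with total counts and no TMM factor, 2060 with DESeq2 on the 6 lines, 2173 with limma-voom and the line as a random effect, 6096 and 7186 with edgeR and DESeq2 on the 18 cultures as separate samples, and 5681 with the culture number as a block. With the line number as a replicate block no gene was called by edgeR (2740 at an unadjusted p under 0.05), and *H19* and *Igfbp2* lost their calls. Same-numbered lines did not deviate together (correlations -0.12, -0.13 and -0.08), so line numbers were not taken as pairs. Leaving out 1 line gave 0 to 172 calls. Total counts moved the median of all genes by -0.13 and the share of calls higher in *Nf1*/*Cdkn2a* dKO from 35.4 to 20.3%. The other scaling and the filters stayed within 1.5 times. The cultures of a line are not separate tumors, so counts over 18 cultures include differences between lines.

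Calls among the microRNA processing genes (0) were 1 with total counts or with at least 10 counts in every line, 2 with DESeq2 on the 6 lines or limma-voom, and 11 in each of the 3 other fits of the 18 cultures. Of all genes tested, DESeq2 on the 6 lines called 12.0% and limma-voom 16.6%. On the 18 cultures, edgeR called 6096 of 13110 genes, or 5681 of 13110 with the culture number as a block. DESeq2 on the 18 cultures called 7186 of 23859 genes with a read. These shares are the background for every list in this paragraph. Calls among the let-7 targets (0) were 3 with DESeq2 on the 6 lines, 5 with limma-voom and 11 in each of the 3 others. Calls among Igf2bp-bound mRNAs (1) were 2 with DESeq2 on the 6 lines, 3 with limma-voom, 6 with DESeq2 on the 18 cultures, 5 in the 2 others, 0 under the line block and 0 to 1 without 1 line (0, with *H19* lost, without each *Nf1*/*Cdkn2a* dKO line). Calls among the growth factor genes (1) were 2 with total counts or without the filter, 3 with DESeq2 on the 6 lines, 4 with limma-voom, 6 in each of the 3 others, 0 under the line block and 0 without any 1 line. With at least 10 counts in every line 1 gene was called, which was not *Igfbp2*. *Igfbp2* was at 0 CPM in *Nf1*/*Cdkn2a* dKO line 1 and so could not pass that filter. Calls among other HMG genes (0) were 2 with limma-voom, 6 in each of the 3 others and 0 to 1 without 1 line. Calls among other oncofetal genes (1) were 3 with DESeq2 on the 6 lines or limma-voom, 5 in each of the 3 others, 0 under the line block and 0 to 1 without 1 line.

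Without 1 line the log2 fold change was -6.15 to -5.48 for *Igf2bp3* and -2.91 to -0.52 for *Igf2bp1*, smallest in size for both without *Nf1*/*p53* dKO line 2. *Igf2bp2* and *Hmga2* were also called with DESeq2 on the 6 lines and in the 4 fits of the 18 cultures, and *Igf2bp1* with DESeq2 on the 18 cultures. DESeq2 on the 6 lines called 12.0% of all genes tested and limma-voom 16.6%. The 3 other fits of the 18 cultures called 5681 to 7186 genes and took cultures of 1 tumor as separate samples. Nothing is read from these calls, since these differences were among the reasons for choosing the genes. No fitted gene of the 7 changed direction under any alternative run. Of 99 other values under the alternatives, 95 stayed within their tolerance. The tolerance was the spread between lines for list medians and 0.1 for the differences by let-7 match. The overlap of the most-like genes under Spearman correlation was counted as moved. Depth limits *Lin28a*, *Lin28b* and *Igf2bp1*, which rest on few reads.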
